A study of Homo sapiens with 2 samples.

Results

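Ubiquitin-specific proteases (USPs) and E2 ubiquitin-conjugating enzymes were compared between established cell lines of human hepatocellular carcinoma, MHCC97H and MHCC97L. The members were the protein-coding genes whose symbol is USP or UBE2 with a number or a letter, 47 USP genes and 32 E2 genes, 79 of the 44591 genes in the deposited count table. Names such as USP9X and CDC34, which fall outside this naming pattern, were not members although they encode a USP and an E2. MHCC97H and MHCC97L were both labelled wild type and cultured in the same medium, and the labels describe their spontaneous metastatic potential as high and low, respectively. Each line was represented by 1 library of poly(A)-selected RNA. No test across samples exists for any difference below, which is between these 2 libraries and not between the lines as conditions.

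Ubiquitin is attached to proteins by a chain of enzymes. An E1 enzyme activates it, an E2 enzyme carries it on a catalytic cysteine, and an E3 ligase places it on the substrate. The USPs are cysteine proteases that take it off again, and they form the largest family of human deubiquitinases. UBE2C and UBE2S serve the anaphase-promoting complex (APC/C), the E3 ligase that ends mitosis: UBE2C starts the chains on its substrates and UBE2S lengthens them.

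The coding sequence around the catalytic cysteine is shown for the mitotic E2 genes and for the USP genes with the highest and the lowest ratio between the libraries, because the ratios below followed the base composition of the transcript. The sequences are GENCODE release 29 coding sequences, 5′ to 3′, and capitals mark the cysteine codon.
UBE2C: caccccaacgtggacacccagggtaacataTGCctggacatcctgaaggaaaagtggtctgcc
UBE2S: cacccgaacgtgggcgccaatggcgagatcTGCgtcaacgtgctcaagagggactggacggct
USP15: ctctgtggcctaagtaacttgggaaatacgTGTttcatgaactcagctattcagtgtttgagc
USP20: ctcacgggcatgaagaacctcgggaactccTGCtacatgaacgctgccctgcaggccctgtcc
Each window has 63 bases. In the USP15 window 27 of these are G or C (42.9%), against 39 in the USP20 window (61.9%), 35 in the UBE2C window (55.6%) and 40 in the UBE2S window (63.5%). Over the whole coding sequence the GC content was 38.9% for USP15, 60.5% for USP20, 55.3% for UBE2C and 64.4% for UBE2S. UBE2C lies on chromosome 20, UBE2S on 19, USP15 on 12 and USP20 on 9.

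The MHCC97H library held 28967153 counted reads and the MHCC97L library 24964246. Levels are given as CPM, the read count scaled to a common library size by the trimmed mean of M-values (TMM), which allows a gene to be compared between the libraries but not with other genes. Ratios are log2 of MHCC97H over MHCC97L, with an exact 95% interval that covers counting error alone. A gene was called higher or lower when its log2 ratio was at least 1 in size and the interval excluded equality. Of 11 hepatocyte and hepatocellular carcinoma markers, 9 reached 1 CPM in a library, 3 with positive and 6 with negative log2 ratios. The positive ones were KRT18 (5349 and 4803 CPM in MHCC97H and MHCC97L), GPC3 (52.8 and 51.7 CPM) and FGB (1.12 and 0.881 CPM). Among the negative ones, HNF4A stood at 81.9 and 95.3 CPM in MHCC97H and MHCC97L, and SERPINA1 at 5881 and 8305 CPM. ALB (1.88 and 5.49 CPM) and AFP (0.396 and 0.964 CPM) were low in both, and APOA1 had 4 reads in each. ALB was called lower, with a log2 ratio of -1.54 (-2.02 to -1.09). Of leukocyte markers, the T cell gene CD3E had no read, and the pan-leukocyte gene PTPRC had 1 read in MHCC97H and none in MHCC97L. Others of that list had reads, with LYZ at 2731 and 2409 CPM, CD68 at 7.68 and 6.21 and CD14 at 4.82 and 3.48. The endothelial markers summed to 0.297 and 0.545 CPM. Of fibroblast and stellate markers, COL1A1 stood at 9.33 and 7.72 CPM, ACTA2 at 9.53 and 15.1 and DCN at 0.594 and 0.755. COL1A2 (2.74 and 6.37 CPM) and PDGFRB (2.21 and 4.70 CPM) were called lower.

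Of the 47 USP genes, 42 passed a filter of 1 CPM in at least 1 library. USP26, USP29 and USP51 had no read in either library, USP44 had 1 read in MHCC97L and USP50 had 3 reads in MHCC97H. A count of 0 allows up to 0.104 CPM of the total counts in MHCC97H and 0.120 CPM in MHCC97L. Of the 32 E2 genes, 31 passed, and UBE2U had no read.

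Most kept USP genes had somewhat higher levels in the MHCC97H library, but few passed 2-fold. Of 42, 34 (81.0%) had a positive log2 ratio, against 56.5% of the 12371 kept protein-coding genes. The median was 0.42, against 0.10 for all kept protein-coding genes. The log2 ratios ran from -0.45 to 1.27. USP15, USP13, USP1 and USP14 were called higher and none was called lower. That is 9.52% of kept USP genes called higher, near the 8.06% of all kept protein-coding genes, of which 2.96% were called lower. With the libraries scaled by total counts 8 USP genes (19.0%) were called higher, against 11.9% of all kept protein-coding genes. At a 1.5-fold threshold 17 USP genes (40.5%) were higher and none lower, against 22.4% and 10.4% of all kept protein-coding genes.

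USP15 is a deubiquitinase of TGF-beta and innate immune signalling. It had 308 reads in MHCC97H and 100 in MHCC97L, which is 10.2 against 4.19 CPM, so its level was 2.42-fold higher in MHCC97H (95% counting interval 1.93 to 3.07). USP13, which acts on substrates that include ubiquitin chains and autophagy regulators, had 660 against 222 reads, 21.8 against 9.31 CPM, a 2.34-fold difference (2.01 to 2.73). USP15 had the fewest reads of the 4 called USP genes, and its interval is the widest.

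USP1, which removes ubiquitin from FANCD2 and PCNA in DNA repair, had 1412 against 529 reads, 46.6 against 22.2 CPM, a 2.1-fold difference (1.90 to 2.32). USP14, a deubiquitinase bound to the proteasome, had 1124 against 426 reads, 37.1 against 17.9 CPM, a 2.07-fold difference (1.85 to 2.33). Both intervals include values under 2-fold, as does that of USP15, so counting error alone could place these genes on either side of the threshold. All 4 called genes have AT-rich transcripts, with a GC content of 36.6% for USP15, 38.8% for USP1, 42.0% for USP14 and 45% for USP13, against a median of 50.3% for kept protein-coding genes with a value.

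Over the whole table the ratio was lower at higher transcript GC content, so each ratio was also computed after subtracting a smooth trend of the log2 ratio on GC content and transcript length, called trend-corrected here. After this correction USP15 stood at 0.37, USP13 at 0.74, USP1 at 0.29 and USP14 at 0.51, and no USP gene was called in either direction. Of all kept protein-coding genes with a value, 1.8% were then called higher and 2.62% lower. At 1.5-fold after correction, USP13 was higher and no USP gene was lower, which is 2.38% of the class against 7.54% higher and 8.01% lower among all kept protein-coding genes. The USP median became 0.05.

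**Figure D1:**
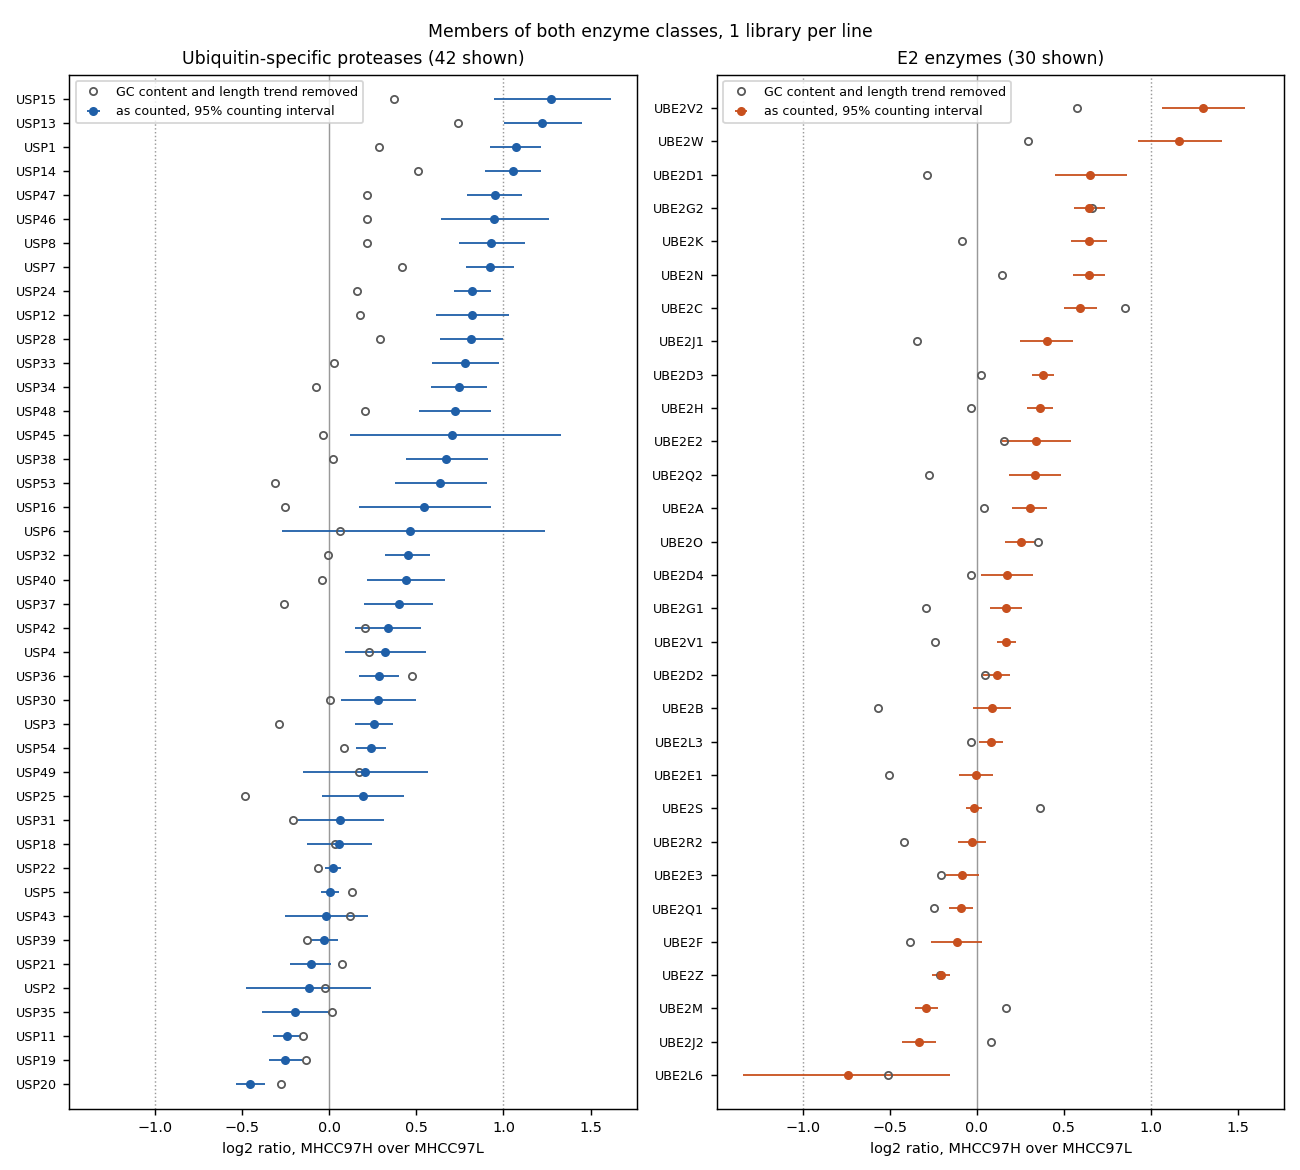
Log2 ratio of MHCC97H over MHCC97L for kept members, USP genes on the left and E2 genes on the right, 1 library per line. Filled points are TMM-scaled counts with 95% counting intervals, open points are trend-corrected ratios, and dotted lines mark 2-fold. USP15 and UBE2V2 lead their classes, most open points of the upper rows lie far to the left of the filled ones, and UBE2C and UBE2S move to the right.

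By role, the USP genes of the cell cycle, replication and DNA damage had positive ratios in all 7 kept members, with a median of 0.82. Their transcripts had GC contents of 38.8 to 44.5%. Of 3865 kept protein-coding genes under 45% GC, 3487 had positive ratios, with a median of 0.65, so this is not particular to the group. After USP1 the highest were USP47 at 0.95 and USP7 at 0.92. USP47, which acts in base excision repair, stood at 37.7 against 19.5 CPM. USP7, the deubiquitinase of MDM2 and p53, stood at 49.0 against 25.9 CPM. After correction the median of this group was 0.22, with 5 of 7 positive, against 49.9% of kept protein-coding genes with a value. USP47 then stood at 0.22 and USP7 at 0.42.

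The USP genes of endosomes and receptor trafficking differed among themselves. USP8, which acts on the EGF receptor at endosomes, had a log2 ratio of 0.93, at 25.8 against 13.5 CPM. USP20 had the lowest ratio of the class, at -0.45 (-0.54 to -0.37), with 2219 reads in MHCC97H and 2388 in MHCC97L, which is 73.2 against 100.1 CPM. Trend-corrected, USP8 stood at 0.22 and USP20 at -0.27, so both kept their direction. USP19, an endoplasmic reticulum deubiquitinase, and USP11 followed USP20 at the low end with -0.25 and -0.24, and USP35 was the fourth lowest at -0.20. USP19, USP11 and USP35 have GC contents of 58.9, 56.6 and 60.8%. Trend-corrected, USP19 stood at -0.13 and USP11 at -0.15, while USP35 was at 0.02, on the other side of equality.

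The histone and chromatin group had a median of 0.21, and the group of large or less studied USP genes one of 0.67, with no call in either. USP24 led the second group at 74.6 against 42.2 CPM (0.82), and USP34, a very large protease, stood at 33.7 against 20.1 CPM (0.74). After correction the medians were 0.08 and -0.03, and USP34 was at -0.08. The lowest corrected value of the class was that of USP25 (-0.48), which stood at 12.1 against 10.6 CPM and 0.19 as counted. USP36, a nucleolar protease, was at 0.29 as counted and 0.47 corrected.

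The 3 most abundant USP genes per kilobase of transcript were nearly equal in both libraries. USP5, which recycles free ubiquitin chains, stood at 222.8 against 222.1 CPM. USP22, the deubiquitinase of the SAGA coactivator, stood at 305.4 against 301.0 CPM, and USP39, a splicing factor without protease activity, at 101.6 against 103.6 CPM. Their log2 ratios were 0.00, 0.02 and -0.03, and 0.13, -0.06 and -0.13 after correction. USP18, an interferon-induced protease of the ubiquitin-like modifier ISG15, had a log2 ratio of 0.06, although 23.4% of its 50-base stretches also occur in transcripts of other genes, mostly its near copy USP41.

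The E2 genes lay closer to equality. Of 31 kept genes, 21 (67.7%) had a positive log2 ratio, against 56.5% of all kept protein-coding genes. The median was 0.17, and the ratios ran from -0.74 to 1.30. UBE2V2 and UBE2W were called higher and none was called lower, 6.45% of the class, under the 8.06% of all kept protein-coding genes. At 1.5-fold UBE2C, UBE2D1, UBE2G2, UBE2K, UBE2N, UBE2V2 and UBE2W were higher, 7 genes or 22.6%, and UBE2L6 was lower, next to 22.4% and 10.4% of all kept protein-coding genes.

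UBE2V2, an inactive E2 variant that pairs with UBE2N to build non-degradative chains in the DNA damage response, had 604 reads in MHCC97H and 193 in MHCC97L, 19.9 against 8.09 CPM, a 2.46-fold difference (2.09 to 2.91). UBE2W, which attaches ubiquitin to the amino terminus of proteins, had 550 against 193 reads, 18.1 against 8.09 CPM, a 2.24-fold difference (1.90 to 2.65). The interval of UBE2W includes values under 2-fold, while that of UBE2V2 does not. Both genes lie on chromosome 8, and their transcripts have GC contents of 37.7 and 34.7%. Corrected for the trend, UBE2V2 stood at 0.57 and UBE2W at 0.29, and neither met the rule.

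UBE2D1, UBE2G2, UBE2K and UBE2N followed, with log2 ratios of 0.65, 0.64, 0.64 and 0.64. UBE2D1 is a general-purpose E2, UBE2G2 an E2 of endoplasmic reticulum-associated degradation, and UBE2K a builder of degradative chains. UBE2G2, at 100.6 against 64.4 CPM, kept its value after correction (0.66), while UBE2K (-0.08) and UBE2D1 (-0.29) were on the other side of equality and UBE2N stood at 0.14. Reads of UBE2N are uncertain, since 40.1% of its 50-base stretches occur in transcripts of other genes.

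The UBE2D and UBE2E families supply ubiquitin to a wide range of E3 ligases, and none of their 7 genes was called. UBE2D1 had the highest ratio of the 7, at 0.65. UBE2D3 had the most reads, 5258 in MHCC97H and 3183 in MHCC97L, 173.4 against 133.5 CPM, a log2 ratio of 0.38. UBE2D2 (0.11) and UBE2E1 (-0.00) stood at or near equality. The family median of 0.17 became -0.04 after correction. UBE2E1 was then at -0.51 and UBE2B, a RAD6 enzyme, at -0.57, the lowest corrected value of all kept members.

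At the low end stood UBE2L6, the E2 of ISG15, with 44 reads in MHCC97H and 58 in MHCC97L and a log2 ratio of -0.74 (-1.34 to -0.15). At this depth its interval spans almost the whole distance from equality to past 2-fold. UBE2J2, an E2 of the endoplasmic reticulum, had a log2 ratio of -0.33, UBE2M, an E2 of the modifier NEDD8, -0.29, and UBE2Z, the E2 charged by UBA6, -0.21. After correction UBE2L6 stood at -0.51 and UBE2Z at -0.21, while UBE2J2 (0.08) and UBE2M (0.17) were on the other side of equality. Of the 5 E2 genes of ubiquitin-like modifiers or UBA6, 4 had negative ratios as counted and 3 after correction. Among kept protein-coding genes 5381 of 12371 were negative as counted and 6069 of 12121 after correction. The median GC content of the 5 E2 genes was 56.5%.

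The mitotic E2 genes differed from each other. UBE2C had 2645 reads in MHCC97H and 1378 in MHCC97L, 87.2 against 57.8 CPM, a 1.51-fold difference (1.41 to 1.61). UBE2S had 8357 against 6655 reads, 275.6 against 279.0 CPM, a log2 ratio of -0.02 (-0.06 to 0.03). Neither met the 2-fold rule, and the interval of UBE2S includes equality. With the libraries scaled by total counts the UBE2S ratio was 0.11, on the other side of equality. The other 29 kept E2 genes had a median log2 ratio of 0.17.

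Ratios of reads within a library need no scaling. The reads of UBE2C over those of all other E2 genes apart from UBE2S were 1.38-fold higher in MHCC97H (95% interval 1.29 to 1.47). For UBE2S this ratio was 0.901 (0.870 to 0.932), so UBE2S was slightly under the rest of its class. UBE2C over UBE2S was 1.53-fold higher (1.42 to 1.65). Against the summed USP reads UBE2C stood at 1.32 (1.23 to 1.41) and UBE2S at 0.863 (0.833 to 0.893).

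Corrected for GC content and length, UBE2C stood at 0.85, the highest log2 ratio of the 73 kept members, and UBE2S at 0.36, against a median of -0.04 over the other E2 genes. Corrected E2 ratios still differed with GC content, with a median of -0.24 for the 13 genes under 45% GC. For the 11 genes at 50% GC or more, which include UBE2C and UBE2S, it was 0.17. UBE2C and UBE2G2 were then the E2 genes called at 1.5-fold, 6.45% of the class, and no E2 gene was lower, against 7.54% higher and 8.01% lower among all kept protein-coding genes. The direction of the shift of UBE2C depended on whether length was part of the trend. With a trend on GC content alone subtracted, UBE2C stood at 0.55, slightly under its value as counted and below USP13 (0.83) and UBE2G2 (0.66), and UBE2S stood at 0.32. With the longest annotated transcript in place of the median one, and length in the trend, UBE2C and UBE2S stood at 0.78 and 0.15. For UBE2S, 17.2% of 50-base stretches also occur in other transcripts, led by its pseudogenes, against 0.136% for UBE2C.

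The partners of the mitotic E2 genes gave mixed values. Of 17 APC/C subunits and activators, ANAPC1, the largest subunit, was called higher, at 36.6 against 16.8 CPM (log2 ratio 1.13), and none was called lower, so that 5.88% were higher against 8.06% of all kept protein-coding genes. The list had 12 positive ratios (70.6%, against 56.5% of all kept protein-coding genes) and a median of 0.27. After correction the median was 0.10 and none was called. The activator CDC20, which pairs with the APC/C in mitosis, stood at 229.7 against 160.8 CPM, a log2 ratio of 0.52, next to 0.59 for UBE2C. ANAPC11 and ANAPC2, which form the catalytic core, stood at -0.44 and -0.29, and FZR1, the activator of late mitosis and G1, at -0.32. After correction CDC20 stood at 0.73, and ANAPC11, ANAPC2 and FZR1 were on the other side of equality at 0.11, 0.02 and 0.09. These 4 genes were chosen after their values were seen.

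Proliferation genes stood on the same side as UBE2C. All 7 on the list, CDC20 among them, had positive ratios, against 56.5% of all kept protein-coding genes, and the list median was 0.70. MKI67 (1.42) and TOP2A (1.44) were called higher, 28.6% of the list against 8.06% of all kept protein-coding genes. The median of the corrected ratios was 0.63, with MKI67 (1.03) called and TOP2A (0.63) not. The part of a difference in cycling cells in the UBE2C ratio was not tested, and a larger share of cells with UBE2C and more of its RNA per cell cannot be told apart in bulk RNA.

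**Figure D2:**
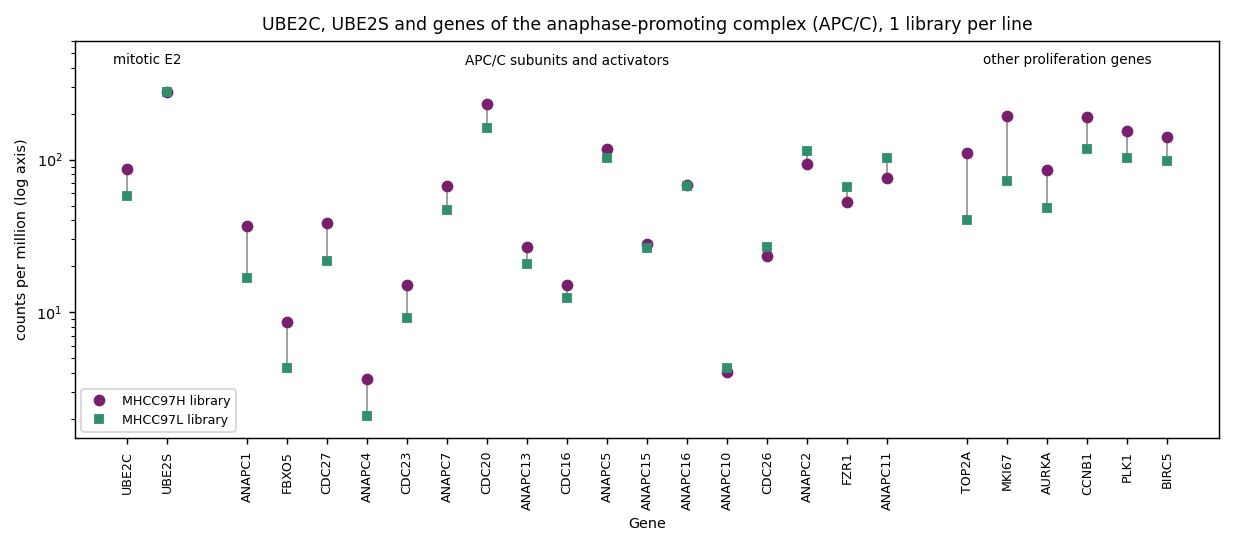
Level of UBE2C, UBE2S, the APC/C genes and other proliferation genes in CPM on a log axis, with circles for the MHCC97H library and squares for the MHCC97L library. The UBE2S symbols coincide at 275.6 and 279.0 CPM, UBE2C differs at 87.2 and 57.8 CPM, and the APC/C genes lie on both sides of equality.

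The ratios of the enzyme classes overlapped. The USP median exceeded the E2 median by 0.25 on the log2 scale. The lower and upper quartiles were 0.06 and 0.81 for USP genes and -0.02 and 0.39 for E2 genes. The USP ratios spanned -0.45 to 1.27 and the E2 ratios -0.74 to 1.30. In MHCC97H, USP reads summed to 0.185% of all counted reads (95% exact interval 0.184 to 0.187), and in MHCC97L to 0.148% (0.146 to 0.149). E2 reads summed to 0.292% (0.290 to 0.294) and 0.244% (0.242 to 0.246). The USP reads over the E2 reads were 1.05-fold higher in MHCC97H (1.03 to 1.06).

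The classes also differ in their transcripts. The median transcript had 3868 bases for kept USP genes and 2175 for kept E2 genes, with GC contents of 44.8 and 46.4%. The difference of the medians stayed at 0.25 when a trend on GC content alone was subtracted, and was 0.08 when the trend included length. It was 0.21 when the longest transcript of each gene stood in for the median one. The class difference therefore depended on how transcript length was treated.

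Within each class the ratio followed GC content. Across members, Spearman's rho of the log2 ratio with GC content was -0.80 over 42 USP genes and -0.63 over 31 E2 genes, next to -0.68 over 12121 kept protein-coding genes, as a description over genes that share 2 libraries. Among members under 45% GC, the 21 USP genes were all positive, with a median of 0.78 in log2 ratio. Of 13 E2 genes in that range 12 were positive, with a median of 0.38. Of the 3865 kept protein-coding genes there, 3487 were positive, with a median of 0.65. At 50% GC or more, the medians were 0.00 for 15 USP genes, -0.02 for 11 E2 genes and -0.21 for 6163 kept protein-coding genes. Of the 26 members at or above 50% GC none was called higher, and of all kept protein-coding genes in that range 0.892% were.

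**Figure D3:**
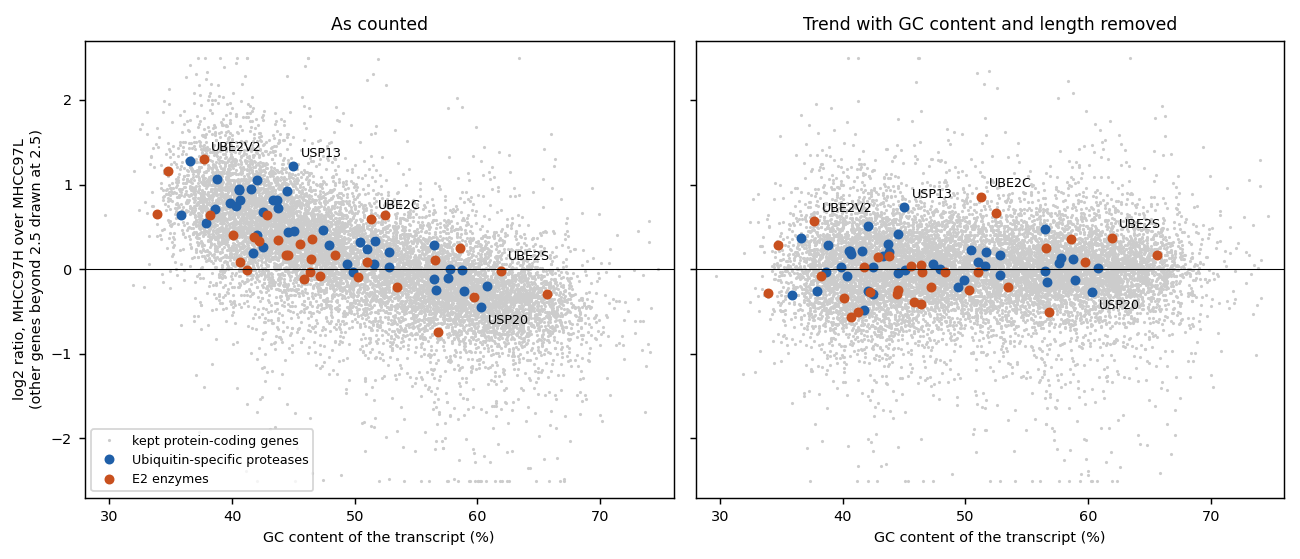
Log2 ratio of MHCC97H over MHCC97L against transcript GC content in percent, with kept protein-coding genes in grey, USP genes in blue and E2 genes in orange, before (left) and after (right) trend correction. Other genes with a ratio beyond the limit named on the axis are drawn at that limit. The members follow the slope of all genes on the left, with rho of -0.80 for USP genes, and UBE2C stands highest of the members on the right at 0.85.

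Related enzymes of the same kind did not share one ratio. Among 26 pairs of kept members within sets of paralogs, the read ratio of the pair differed between the libraries beyond counting error in 21, and by at least 1.5-fold in 8. Some members are in several pairs, so the pairs are not separate cases. Pairs of unrelated genes were not compared, so the counts of pairs here and below do not show a trait of paralogs. USP15 over its paralog USP11 was 2.86-fold higher in MHCC97H (95% interval 2.26 to 3.65), and USP15 over USP4 1.94-fold (1.46 to 2.58). USP33 over USP20, both deubiquitinases of the beta-2 adrenergic receptor, was 2.35-fold higher (2.03 to 2.72). The corrected log2 differences of these 3 pairs were smaller, at 0.52 for USP15 over USP11, 0.15 for USP15 over USP4 and 0.30 for USP33 over USP20. USP13 over USP5 was 2.33-fold higher (1.99 to 2.74), and UBE2V2 over UBE2V1, the alternative partners of UBE2N, 2.19-fold higher (1.85 to 2.60), although 59.4% of the 50-base stretches of UBE2V1 also occur in other transcripts. Corrected, these pairs differed by 0.61 and 0.82 on the log2 scale.

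Of the same 26 pairs, the member with the lower GC content was the higher one in 20. After correction 11 pairs were in the opposite order. UBE2J1 over UBE2J2 was 1.66-fold as counted (1.46 to 1.88) and had a corrected log2 difference of -0.43. The pairs that did not follow composition included USP28 over USP25 (1.54-fold, 1.25 to 1.89), UBE2G2 over UBE2G1 (1.39-fold, 1.27 to 1.52) and UBE2A over UBE2B (1.16-fold, 1.05 to 1.29). Their higher members have the higher GC content, and their corrected log2 differences were 0.78, 0.95 and 0.61. USP28 and USP25 encode near relatives with roles in the DNA damage and the innate immune response, and UBE2A and UBE2B encode the RAD6 enzymes of DNA damage tolerance. UBE2A overlaps NKRF in 29.6% of its 50-base stretches. USP46 over USP12, which share the activator WDR48, did not differ beyond counting error (1.09-fold, 0.842 to 1.42).

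**Figure D4:**
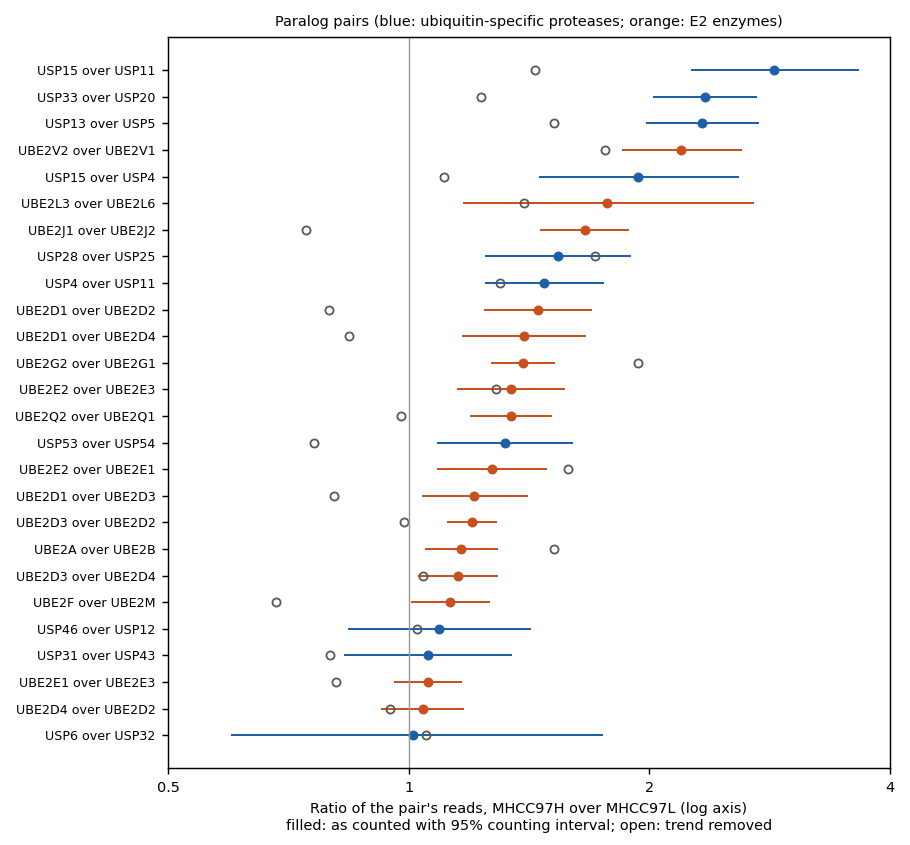
Read ratio of paralog pairs in MHCC97H over the same ratio in MHCC97L, on a log axis, with USP pairs in blue and E2 pairs in orange. Filled points are read counts with 95% counting intervals, open points are trend-corrected ratios, and the leading pair is USP15 over USP11 at 2.86-fold.

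Compared per kilobase of transcript, E2 genes were more abundant than USP genes. Over all members of the table, the median E2 gene stood at 34.8 CPM per kilobase in MHCC97H and 27.3 in MHCC97L, and the median USP gene at 4.77 and 3.19. USP5, USP22 and USP39 together made up 36.6% of the USP sum per kilobase in MHCC97H and 41.2% in MHCC97L. UBE2D3, UBE2S and UBE2D2, the 3 highest by the mean of both libraries, held 31.2 and 30.9% of the E2 sum. UBE2S alone held 11.5 and 12.9%, and UBE2C 7.85 and 5.76%. These shares depend on the transcript length used. With the longest transcript UBE2S held 10.5 and 11.4%, UBE2C 9.29 and 6.61%, but UBE2D3, which held 12.3 and 10.5% with the median transcript, held 4.05 and 3.35%.

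Of 8 E1 genes, 3 (37.5%) were called higher and none was lower, against 8.06% and 2.96% of all kept protein-coding genes. UBA6 and NAE1 were among the 3, with log2 ratios of 1.17 and 1.14. The list median was 0.82. After correction it was 0.18 and none was called, against 1.8% higher and 2.62% lower among all kept protein-coding genes. UBA6 charges UBE2Z, which stood at -0.21. NAE1 pairs with UBA3 (0.89) to charge UBE2M and UBE2F, which stood at -0.29 and -0.12. Corrected, UBA6 stood at 0.25, NAE1 at 0.53 and UBA3 at 0.22, against -0.21 for UBE2Z, 0.17 for UBE2M and -0.39 for UBE2F. The E1 of the main ubiquitin route, UBA1, was near equality at 819.2 against 784.0 CPM. These E1 and E2 pairs were chosen after their values were seen.

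The 4 ubiquitin-coding genes all had negative ratios, as did 5381 of the 12371 kept protein-coding genes. Their median was -0.39 (-0.25 after correction), and none of the 4 was called. UBB stood at 717.5 against 814.2 CPM. Of 32 other deubiquitinases listed, 30 were matched in the table, 29 were kept and 5 (17.2%) were called higher, against 8.06% of all kept protein-coding genes. Their median log2 ratio was 0.35, and 0.00 after correction over 27 genes with a value. The 5 were BRCC3 (1.41), OTUD4 (1.29), UCHL5 (1.27), FAM63B (1.14) and MYSM1 (1.02). BRCC3, which cleaves ubiquitin chains at DNA breaks, stood at 16.2 against 6.08 CPM and at 1.30 after correction, and was the 1 gene of 27 (3.7%) called higher on that scale, against 1.8% of all kept protein-coding genes. Of 8 USP partner proteins, STAM2 (1.20), an endosomal partner of USP8, was called higher (12.5%, against 8.06% of all kept protein-coding genes). The list median was 0.56 (0.07 after correction). Of 8 other genes with an E2 fold, UEVLD (1.47) and BIRC6 (1.13) were called higher (25%, against the same 8.06%). In that list 4 ratios were positive and 4 negative, and the median was 0.15 (-0.11 after correction). After correction no gene of either list was called, against 1.8% higher among all kept protein-coding genes.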

How the data were processed

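Per the labels' protocols, RNA was extracted with Trizol, and NEBNext kits were used for poly(A) selection and library preparation. The values the authors deposited are raw read counts, not normalised. The submitters' processing notes name the build hg19, HTSeq 0.11.2, HISAT2 2.1.0 and bcl2fastq. Which annotation was counted, whether strand was used and how reads with several alignments were handled is not given in the sources used here, so reads of overlapping genes and near-identical copies are uncertain. Columns were assigned through the labels' descriptions.

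TMM factors over all genes of the table, from edgeR 4.0.16 in R 4.3.3, were 1.05 for MHCC97H and 0.955 for MHCC97L. The filter of 1 CPM of total counts in at least 1 library kept 14578 genes, 12371 of them protein coding, and 73 members. Log2 ratios used a prior count of 0.5. Intervals are exact Clopper-Pearson intervals of the split of a gene's reads, or exact conditional intervals of an odds ratio. They and the floors (3 counts) cover counting error only, because without molecular identifiers PCR copies of a molecule are counted as separate reads. Transcript length and GC content are medians over GENCODE 29 basic transcripts, available for 12977 kept genes (89.0%) and all 73 kept members. A lowess trend with a span of 0.2 on GC content and log2 length, fitted over these genes, was removed. Its removal lowered the standard deviation of the log2 ratio from 0.66 to 0.51. Shared stretches are 50-base words, on either strand, found in a transcript of another GENCODE gene. Build hg19 differs from that of GENCODE 29, so no coordinates are given.

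Named members were every called gene, UBE2C, UBE2S, the 4 highest, 4 lowest and 3 most abundant of each class and members of paralog sets. Of the paralog pairs the text describes a selection, so not every member of these sets is named in it. Other members named (USP7, USP8, USP24, USP34, USP36, USP47, UBE2K and UBE2N) were chosen after their values were seen. The members, lists and rules were chosen with earlier results of these data known. A few genes with these name patterns or on the related lists are not reported here. Exact intervals came from scipy 1.17.1, the lowess from statsmodels 0.14.6, tables from pandas 2.3.3 and median-of-ratios factors from DESeq2 1.42.0. The steps were tested on simulated data. Alternatives covered scaling, filter, threshold, prior count, interval, the trend and shared reads.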

Additional observations from a re-analysis of the deposited data

How the results depend on the processing

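No paired analysis was possible because each line has 1 library. Both class medians, both counts and the ratios of UBE2C and UBE2S stayed close to the reported values with median-of-ratios scaling, TMM over the kept genes, no filter, a filter of 5 CPM, a prior count of 2 and an assumed coefficient of variation of 0.2. Without the members that share over 10% of their 50-base stretches the counts were the same and the medians were 0.54 for 33 USP genes and 0.29 for 22 E2 genes. Scaling by total counts moved the median of all kept protein-coding genes from 0.10 to 0.24 and the higher share of their calls from 73.1 to 84.3%. It gave 8 higher USP genes (19.0%) and 2 higher E2 genes (6.45%), against 11.9% of all kept protein-coding genes. It put UBE2C at 0.73 and UBE2S at 0.11, which is on the other side of equality for UBE2S. A 1.5-fold threshold gave 17 higher USP genes (40.5%), 7 higher E2 genes (22.6%) and 1 lower E2 gene. Of all kept protein-coding genes 22.4% were then higher and 10.4% lower. UBE2C (0.59) met this threshold. With the trend on GC content and length removed, no USP and no E2 gene was called (0 and 0), the medians were 0.048 and -0.035, UBE2C stood at 0.85 and UBE2S at 0.36. With GC content alone removed the calls were also 0 and 0, the medians 0.11 and -0.14, and UBE2S stood at 0.32. Further alternatives were added after the data were seen. With the longest transcript they gave 0 and 0 calls, medians of 0.088 and -0.12, UBE2C at 0.78 and UBE2S at 0.15. A 1.5-fold threshold with the trend removed gave 1 higher USP gene (2.38%) and 2 higher E2 genes (6.45%), against 7.54% of all kept protein-coding genes. The cause was not tested. With 1 library per line, spread between cultures is unknown, and UBE2L6 and USP6 (44 reads each in MHCC97H) are limited by depth.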
